A study of Mus musculus with 6 samples.

Results

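The subject is the vacuolar proton pump (V-ATPase), given as 10 mouse genes chosen by name as subunits or accessory proteins of the pump: Atp6v0b, Atp6v0c, Atp6v0d1, Atp6v0e, Atp6v1a, Atp6v1b2, Atp6v1c1, Atp6v1h, Atp6ap1 and Atp6ap2. On the arrays 9 of the 10 were represented, by 18 probe sets, out of 12393 named genes and 22626 probe sets tested. A probe set is a group of short probes, most often annotated to 1 gene. No probe set naming 1 gene was annotated to Atp6v0c, so its expression was not analysed here. Stem cells were represented by 3 arrays, titled as spermatogonial stem cells, and the remaining 3 arrays were titled as total testicular cells. The stem cell arrays held testis cells positive for a human CD4 surface antigen, isolated with magnetic beads from CD4HAglo transgenic mice, in which a truncated Stra8 promoter drives that antigen, with 50 males pooled for each preparation. The total testicular arrays came from the same transgenic mice, and their source text names cells negative for the antigen, which differs from their title. The study's design text speaks of adult stem cells, while no age in days or strain is given. The labels do not say whether each array is a separate preparation, so p-values measure the spread between these arrays, which may be technical.

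The V-ATPase uses ATP to pump protons into lysosomes, endosomes, secretory granules and, in spermatids, the acrosome. Its peripheral V1 sector hydrolyses ATP and its membrane V0 sector carries the protons, with accessory proteins that bind V0. Acidification by the pump is needed for the lysosomal breakdown of engulfed material in phagocytes, and the pump's subunits come in ubiquitous and tissue-restricted isoforms.

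The deposited values are on a log2 scale, and a background of 2.37 was taken from 27 bacterial control probe sets. Between 71.3% and 75.0% of the probe sets on each array lay above it. Stem cell replicate 1 lay apart from the other stem cell arrays, with a first principal component score of 78.7 against 18.8 and 15.3 for replicates 2 and 3. Markers of other testis cells differed between the groups. All 15 macrophage markers were higher on the stem cell arrays and 13 passed the test described below. Their summed linear level ranged from 2839 to 10664 on the stem cell arrays and from 218 to 333 on the total testicular arrays, with 0 of 15 below background by mean in stem cells and 1 of 15 in total testicular cells. For 5 measured Leydig cell markers the sums ranged from 763 to 3088 on the stem cell arrays and from 252 to 603 on the total testicular arrays, and 0 of 5 passed in limma (5 higher at an unadjusted p under 0.05, against 11.8% of all genes higher). For 9 Sertoli cell markers, of which 1 passed, they ranged from 859 to 2226 on the stem cell arrays and from 385 to 447 on the total testicular arrays. Most of that sum came from Clu, the gene that passed (log2 difference 2.02, limma adjusted p = 0.0234), and the median of the 9 markers was 0.25. For the labelled cell type, 11 spermatogonial markers were measured, Stra8 and Kit among them, and 0 passed in limma. At an unadjusted p under 0.05, 2 were higher and 1 lower, against 11.8% and 13.1% of all genes. Their summed level ranged from 227 to 326 on the stem cell arrays and from 328 to 347 on the total testicular arrays, with Id4 as the largest contributor on every array (-0.55, limma adjusted p = 0.232). Zbtb16, Gfra1, Ret, Thy1, Sall4 and Lin28a had means of 1.99 to 2.73 over the arrays, near or below the background of 2.37, which limits their test. Stra8, whose promoter drives the sorted antigen, and Itga6 had log2 differences of 1.01 and 0.99 (limma adjusted p = 0.0832 and 0.0739). For both, the groups did not overlap, as held with stem cells higher for 13.8% of all genes. The other probe set of Itga6 gave -0.05, with groups that overlapped. The 7 measured spermatid markers summed to between 32824 and 39736 on the stem cell arrays and between 33907 and 41090 on the others.

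RNA of Atp6ap1 and Atp6ap2, which encode accessory proteins, was about 4-fold higher in the stem cell preparations. Of the other measured members, 0 of 3 in V0 and 0 of 4 in V1 passed. All 3 V0 members were higher at an unadjusted limma p under 0.05, against 11.8% of all genes. The contrast between accessory genes and V0 or V1 genes was not tested. A log2 difference (stem cells minus total testicular cells) counted as a change where limma's p, adjusted over all 22626 probe sets, was under 0.05. By that rule 4 of the 18 member probe sets rose and 0 fell, against 1.4% of all probe sets called higher and 0.15% called lower. With 1 probe set for each gene (the one with the highest mean), 2 of 9 member genes rose and 0 fell, against 1.63% and 0.137% of all genes. The members' median log2 difference was 0.42, beside a median of -0.05 over all genes. Groups of cells were measured in bulk, so more cells of a type and more RNA for each cell cannot be told apart.

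**Figure D1:**
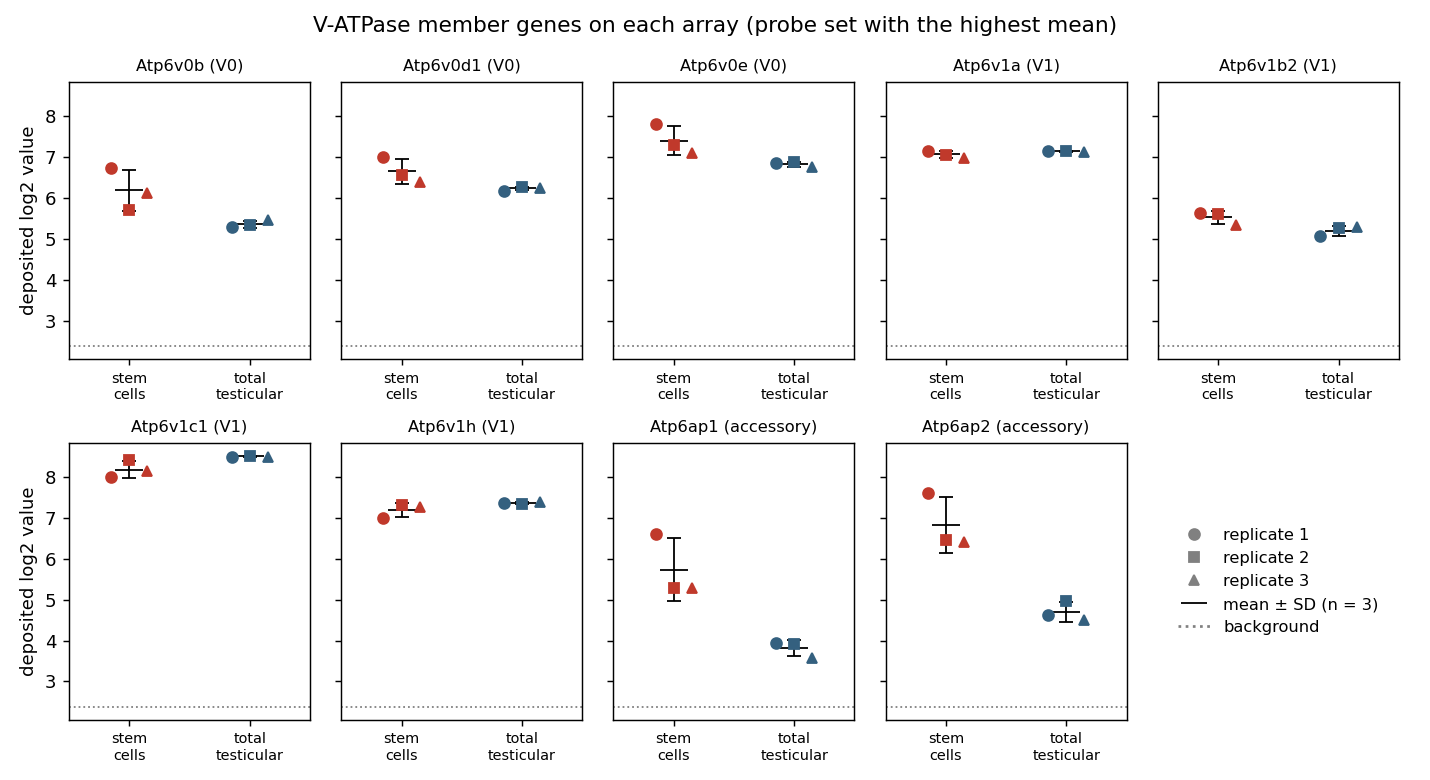
Deposited log2 values (y axis) of the 9 measured member genes on each array, with 3 stem cell arrays (red) left of 3 total testicular cell arrays (blue), replicate number by marker shape, bars for mean ± SD (n = 3) and a dotted line for background. Atp6ap1 and Atp6ap2 lie well apart between the groups, and stem cell replicate 1 is the highest array for both.

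Atp6ap2, which encodes the prorenin receptor, a membrane protein bound to V0, had log2 values of 7.60, 6.45 and 6.42 on stem cell arrays 1, 2 and 3, against 4.62, 4.98 and 4.49 on total testicular arrays 1, 2 and 3. The groups did not overlap, and stem cell replicate 1 was the highest. The means were 6.83 ± 0.67 in stem cells and 4.69 ± 0.25 in total testicular cells (SD, n = 3 each), a 4.38-fold difference (log2 difference 2.13 ± 0.31 SE, limma adjusted p = 0.0187). Its other 2 probe sets also rose, by 2.04 and 2.16, each with a limma adjusted p of 0.0405. Probe sets with an x in their name can share probes with other transcripts, and the largest of the 3 differences came from the one without it.

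Atp6ap1 encodes Ac45, an accessory glycoprotein of V0 that takes part in assembly and targeting of the pump. It had 6.61, 5.30 and 5.29 on stem cell arrays 1, 2 and 3, against 3.94, 3.92 and 3.58 on total testicular arrays 1, 2 and 3. Every stem cell value lay above every total testicular value. Atp6ap1 had no second probe set to compare, and whether its probes match other transcripts was not tested. The means of its 1 probe set were 5.73 ± 0.76 in stem cells and 3.81 ± 0.20 in total testicular cells (SD, n = 3 each), a 3.78-fold difference (log2 difference 1.92 ± 0.34 SE, limma adjusted p = 0.0381).

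Both accessory genes kept their direction, while their calls depended on which arrays were used and on the fit. Without stem cell replicate 1 the log2 differences were 1.74 for Atp6ap2 and 1.48 for Atp6ap1 (limma adjusted p = 0.00162 and 0.00418). Without total testicular replicate 1, 2 or 3 neither gene passed. Those adjusted p values were 0.132, 0.0641 and 0.122 for Atp6ap2 and 0.183, 0.125 and 0.192 for Atp6ap1, with log2 differences of at least 1.80. Over all 17 alternative fits the adjusted p ranged from 0.00162 to 0.313 for Atp6ap2 and from 0.00282 to 0.313 for Atp6ap1, and the log2 differences ranged from 1.74 to 2.38 and from 1.48 to 2.22. Arrays were washed on a fluidics station in 3 rounds, read from the file headers. Within round 1, Atp6ap2 differed by 3.05 and Atp6ap1 by 2.85 (1 stem cell array against 2 total testicular arrays). Within round 3 they differed by 1.48 and 1.38 (1 array against 1). The remaining stem cell array, replicate 3, was alone in its round. With the round as a block, which takes the difference from rounds 1 and 3 alone, the values were 2.38 and 2.22 (limma adjusted p = 0.0121 and 0.0144). With the fluidics module as a block neither gene passed (1.96 for Atp6ap2 and 1.72 for Atp6ap1, limma adjusted p = 0.117 and 0.0838). Neither passed in an unmoderated linear model (adjusted p = 0.313 for both), and Atp6ap1 did not pass without the intensity trend (limma adjusted p = 0.0571).

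The promoters of these genes are shown beside those of Atp6v0b and Atp6v1a, the subunits whose promoters held a match to the motif searched. Factors of the MiT/TFE family bind an E-box with the core CACGTG, and lysosomal genes often carry its extended form TCACGTG. Each sequence holds the 250 bases before 1 transcription start that the promoter table lists for the gene, from RefSeq (build GRCm38.p6), read 5′ to 3′ on the gene's strand, and capitals mark matches to CACGTG or TCACGTG on either strand, where the shorter motif lies within the longer. The windows are chrX:12587509-12587758 (plus strand) for Atp6ap2, chrX:74296847-74297096 (plus) for Atp6ap1, chr4:117887330-117887579 (minus) for Atp6v0b and chr16:44139260-44139509 (minus) for Atp6v1a. The annotated range of Atp6v1a reaches further upstream than the start used, so its window lies inside that range, and the range of Atp6v0b reaches a few bases into its window.
Atp6ap2: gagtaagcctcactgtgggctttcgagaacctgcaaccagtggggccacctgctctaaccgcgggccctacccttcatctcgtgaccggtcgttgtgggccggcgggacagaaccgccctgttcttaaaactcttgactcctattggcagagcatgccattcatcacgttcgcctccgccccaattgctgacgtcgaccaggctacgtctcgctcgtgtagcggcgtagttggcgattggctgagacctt
Atp6ap1: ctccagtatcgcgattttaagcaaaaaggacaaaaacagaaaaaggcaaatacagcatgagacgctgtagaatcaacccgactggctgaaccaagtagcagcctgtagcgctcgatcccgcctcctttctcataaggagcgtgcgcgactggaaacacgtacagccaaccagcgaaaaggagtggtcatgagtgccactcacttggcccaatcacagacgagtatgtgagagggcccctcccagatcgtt
Atp6v0b: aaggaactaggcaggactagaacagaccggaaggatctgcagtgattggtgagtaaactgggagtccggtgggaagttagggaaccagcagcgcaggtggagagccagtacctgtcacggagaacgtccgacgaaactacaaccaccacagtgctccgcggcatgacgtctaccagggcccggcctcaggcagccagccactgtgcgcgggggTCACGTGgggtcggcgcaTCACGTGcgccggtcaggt
Atp6v1a: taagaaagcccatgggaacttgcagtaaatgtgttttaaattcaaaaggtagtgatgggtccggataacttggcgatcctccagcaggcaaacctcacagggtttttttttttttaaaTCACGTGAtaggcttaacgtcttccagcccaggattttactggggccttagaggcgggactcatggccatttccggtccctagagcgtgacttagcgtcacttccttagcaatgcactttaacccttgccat

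The promoters of Atp6ap2 and Atp6ap1, the genes that rose, held 0 matches in these windows. That of Atp6v0b held 2, whose cores begin 36 and 18 bases before the listed start, and that of Atp6v1a held 1, beginning 131 bases before it, where the extended form reads on both strands. Of 7 members with a promoter in the table, Atp6v0c among them, 2 held CACGTG, and of 12 other subunits 0 did. Among all 32851 promoters of that length, 6.02% held CACGTG and 3.13% held TCACGTG. Atp6v1b2, Atp6v1c1 and Atp6v1h were not matched in the promoter table.

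Among the V0 members, all 3 measured genes had higher means on the stem cell arrays, with groups that did not overlap, and 0 passed in limma after adjustment (3 of 3 had an unadjusted p under 0.05, against 11.8% of all genes in that direction). Non-overlap with stem cells higher held for 13.8% of all genes. Atp6v0b, a proteolipid of the proton-carrying ring, had 6.73, 5.72 and 6.12 on stem cell arrays 1, 2 and 3, against 5.29, 5.33 and 5.45 on total testicular arrays 1, 2 and 3. Stem cell replicate 2 was the closest to the other group. The log2 difference of Atp6v0b was 0.83 ± 0.25 (SE, limma adjusted p = 0.105), and its other 2 probe sets gave 0.72 and 0.46. Without stem cell replicate 2 it passed (1.07, limma adjusted p = 0.0371), within an adjusted p range of 0.0371 to 0.468 over 17 alternatives. With the fluidics module as a block (stem cell replicate 2 against total testicular replicate 3) it was 0.26.

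Atp6v0e, a small membrane subunit, had 7.81, 7.30 and 7.11 on stem cell arrays 1, 2 and 3, against 6.85, 6.88 and 6.76 on total testicular arrays 1, 2 and 3. The groups did not overlap, and replicate 1 was again the highest stem cell array. Its log2 difference was 0.58 ± 0.20 (SE, limma adjusted p = 0.133). Atp6v0d1, which couples the ring to the central stalk, had 6.99, 6.57 and 6.40 on stem cell arrays 1, 2 and 3, against 6.18, 6.27 and 6.25 on total testicular arrays 1, 2 and 3. Here too replicate 1 was the highest stem cell array. Its log2 difference was 0.42 ± 0.19 (SE, limma adjusted p = 0.212). Within round 1 the 3 genes differed by 1.36 (Atp6v0b), 1.01 (Atp6v0e) and 0.78 (Atp6v0d1), and within round 3 by 0.38, 0.42 and 0.30. Without stem cell replicate 1 the differences of Atp6v0e and Atp6v0d1 were 0.37 and 0.25.

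The V1 members gave smaller differences of both signs, and 0 of 4 passed in limma (0 had an unadjusted p under 0.05 for the probe set with the highest mean). Their median log2 difference was -0.13. Atp6v1a, the catalytic subunit that hydrolyses ATP, had 7.15, 7.05 and 6.99 on stem cell arrays 1, 2 and 3, against 7.15, 7.15 and 7.13 on total testicular arrays 1, 2 and 3. The groups overlapped. Its log2 difference was -0.08, with a 95% interval from -0.40 to 0.24 (limma adjusted p = 0.763), and after quantile normalization its sign turned (0.017). Its second probe set gave -0.42 (limma adjusted p = 0.261), with stem cell values of 6.24, 6.85 and 6.10, of which replicate 2 lay at the total testicular level of 6.81, 6.79 and 6.85.

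Atp6v1b2, the ubiquitous form of the other subunit of the catalytic head, had 5.63, 5.62 and 5.33 on stem cell arrays 1, 2 and 3, against 5.06, 5.26 and 5.28 on total testicular arrays 1, 2 and 3. It was the V1 member with a positive difference, and its groups did not overlap. The log2 difference was 0.33, with a 95% interval from -0.07 to 0.72 (limma adjusted p = 0.288). Its second probe set gave 0.46, and the third lay below background on all 6 arrays.

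Atp6v1c1, a stalk subunit that links V1 to V0, had 8.01, 8.40 and 8.14 on stem cell arrays 1, 2 and 3, against 8.49, 8.52 and 8.49 on total testicular arrays 1, 2 and 3. All stem cell values lay below all total testicular values, whose SD was 0.02. The log2 difference was -0.32, with a 95% interval from -0.64 to 0.00 (limma adjusted p = 0.214), while its other probe sets gave -0.71 and -0.07. Atp6v1h, a regulator of ATP hydrolysis in V1, had 6.99, 7.31 and 7.26 on stem cell arrays 1, 2 and 3, against 7.37, 7.35 and 7.38 on total testicular arrays 1, 2 and 3. It too was lower on every stem cell array. Its log2 difference was -0.18, with a 95% interval from -0.52 to 0.16 (limma adjusted p = 0.501). Non-overlap with stem cells lower, as for these 2 of 4 V1 members, held for 19.2% of all genes. Without stem cell replicate 2, the second probe set of Atp6v1a (-0.65, limma adjusted p = 0.0449) and the probe set of Atp6v1c1 at -0.71 (-1.01, limma adjusted p = 0.0347) passed as lower. With all arrays neither did. With the fluidics module as a block (stem cell replicate 2 against total testicular replicate 3) Atp6v1c1 and Atp6v1h differed by -0.09 and -0.06. Without stem cell replicate 1 Atp6v1h differed by -0.08.

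**Figure D2:**
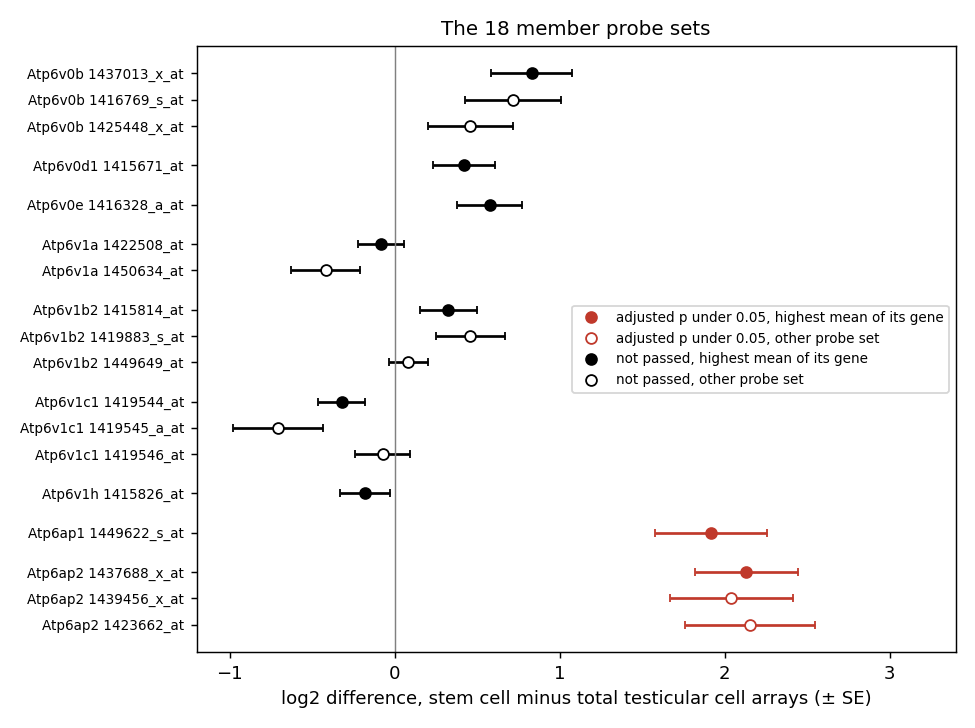
Log2 difference, stem cell minus total testicular cell arrays, ± SE (x axis) for the 18 member probe sets, listed by gene, with filled points for the probe set of highest mean and red for a limma adjusted p under 0.05. The 3 probe sets of Atp6ap2 lie between 2.04 and 2.16, and those of Atp6v1c1 spread from -0.71 to -0.07.

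The remaining subunits of the pump were measured for 14 of 16 genes, and 0 passed in limma (1 higher and 1 lower at an unadjusted p under 0.05, against 11.8% and 13.1% of all genes). Their median log2 difference was -0.09, with 3 positive and 11 negative. The positive ones were Tcirg1, the a3 isoform of V0 known from osteoclasts and macrophages (0.44, limma adjusted p = 0.193), Atp6v1e1, the ubiquitous E subunit (0.26, limma adjusted p = 0.374), and Rnasek, a small V0-associated protein (0.23, limma adjusted p = 0.454). Tcirg1 had 3.60, 3.28 and 3.18 on stem cell arrays 1, 2 and 3, against 2.68, 3.11 and 2.95 on total testicular arrays 1, 2 and 3. The groups did not overlap, and all 6 values lay in the low range of the array, not far above the background of 2.37.

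Atp6v1e2, the testis-specific E isoform in mouse, had 8.08, 8.67 and 8.98 on stem cell arrays 1, 2 and 3, against 9.01, 8.83 and 9.15 on total testicular arrays 1, 2 and 3. Stem cell replicate 1 was the lowest array, and replicate 3 lay within the other group. The log2 difference of Atp6v1e2 was -0.42, with a 95% interval from -0.91 to 0.07 (limma adjusted p = 0.277), beside 0.26 for the ubiquitous isoform Atp6v1e1, and the difference between the isoforms was not tested. Without stem cell replicate 1 these values were -0.17 for Atp6v1e2 and 0.14 for Atp6v1e1. Atp6v1g2, a G isoform known from neurons, gave the most negative value of these genes (-0.47, limma adjusted p = 0.149). Its stem cell mean of 2.86 lay not far above background. Atp6v1b1, the B isoform known from kidney and epididymis, gave -0.31 (limma adjusted p = 0.413). The other V1 subunits gave -0.14 (Atp6v1f), -0.10 (Atp6v1c2), -0.09 (Atp6v1d) and -0.05 (Atp6v1g1).

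Of the a subunits of V0, which set where in the cell the pump sits, Atp6v0a1 had probe sets that disagreed. The one with the highest mean gave -0.01 (limma adjusted p = 0.979), whereas others gave 0.84 and 0.53 without overlap between groups (limma adjusted p = 0.0846 and 0.0844), and the remaining one gave -0.04. The probe set at 0.53 had total testicular values of 2.35, 2.40 and 2.57, close to background. Atp6v0a2 differed by -0.01, with -0.60 and -0.24 for its other probe sets, the latter with a mean below background in both groups. Atp6v0a4 differed by -0.13, from a mean below background in both groups, and Atp6v0e2, a second form of the e subunit, also by -0.13.

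**Figure D3:**
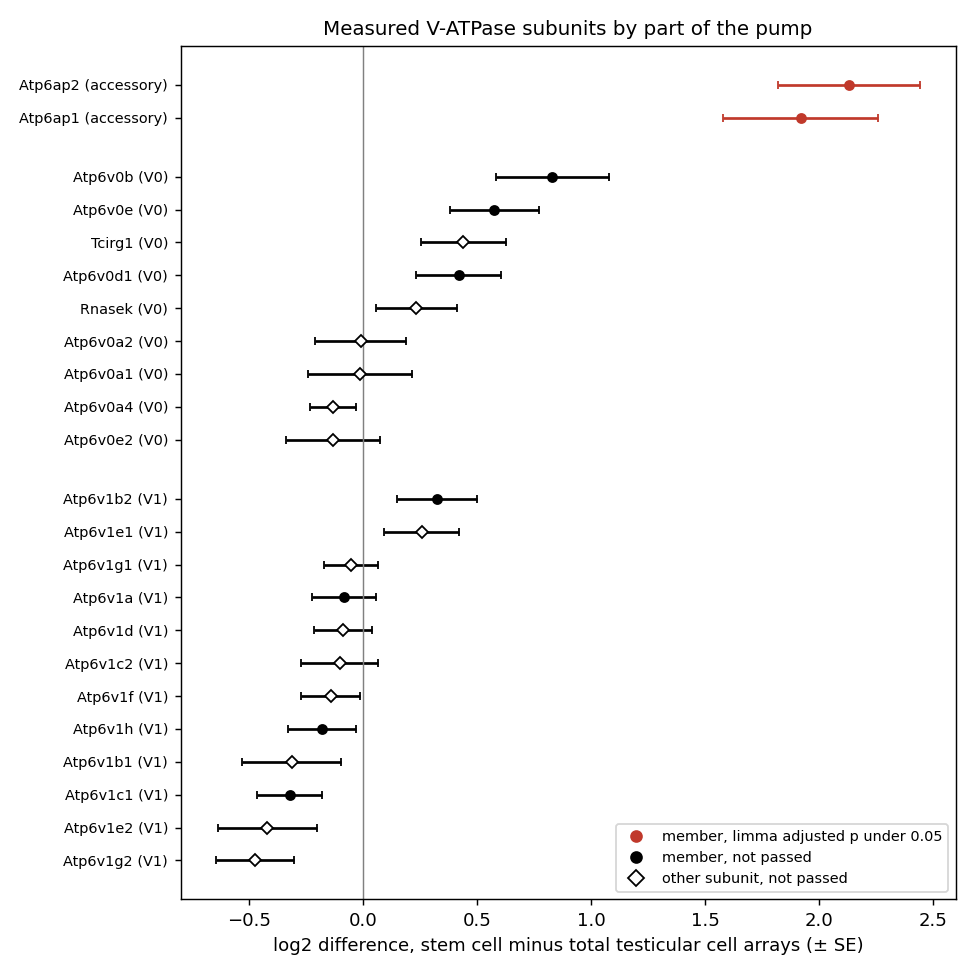
Log2 difference, stem cell minus total testicular cell arrays, ± SE (x axis) for the 23 measured subunit genes of the pump, grouped from top to bottom as accessory, V0 and V1, with circles for the members and diamonds for the other subunits. The 2 accessory genes lie at 1.92 and 2.13 and all others lie between -0.47 and 0.83.

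The differences of the accessory and V0 members varied among the stem cell arrays. They were highest on replicate 1, as were some markers of other cells. With each value set against the average total testicular level of its gene, the median log2 difference was 2.85, 1.62 and 1.60 for the accessory genes on stem cell arrays 1, 2 and 3. It was 0.98, 0.36 and 0.28 for the V0 members and -0.18, -0.07 and -0.13 for the V1 members. For the 15 macrophage markers it was 5.50, 3.86 and 3.52, and for the 5 Leydig cell markers 2.91, 1.86 and 0.82, on the same arrays. The V0 member Atp6v0b gave 1.37, 0.36 and 0.76, with replicate 3 above replicate 2, unlike these markers. The part of macrophage or Leydig cell RNA in the differences of the accessory and V0 genes was not tested. By this median the 9 Sertoli cell markers ran in another order, with 0.14, 0.21 and 0.29. Clu, the Sertoli marker that passed, gave 2.77, 1.24 and 2.04, and the summed level of the 9 was 2226, 859 and 1409. The 7 spermatid markers gave medians of -0.33, -0.24 and 0.08.

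**Figure D4:**
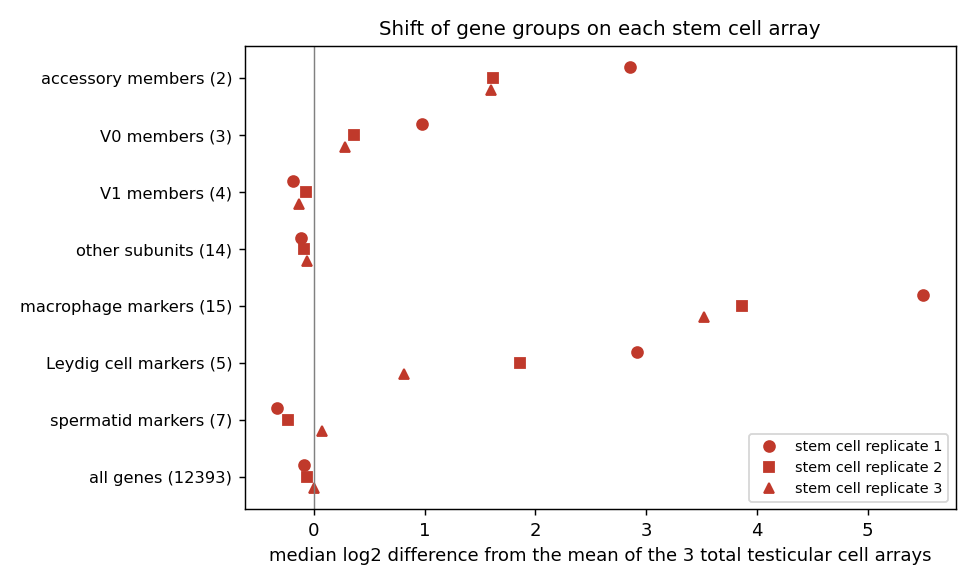
Median log2 difference of each gene group from its average level on the 3 total testicular arrays (x axis), with a marker for each stem cell array. Replicate 1 has the highest value for the accessory genes (2.85), the V0 members (0.98), the macrophage markers (5.50) and the Leydig cell markers (2.91).

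Genes that work with the pump were read from the same fit. The Ragulator and Rag GTPase complex binds the V-ATPase on lysosomes and anchors mTORC1. Of 10 measured genes listed for it, including its partners Flcn and Mtor, 0 passed in limma. At an unadjusted p under 0.05, 5 were higher and 0 lower, against 11.8% of all genes higher. The 5 were Lamtor4 (0.76, limma adjusted p = 0.0832), Lamtor1 (0.70), Lamtor3 (0.60), Lamtor2 (0.50) and Flcn (0.47), and their groups did not overlap, as held for 13.8% of all genes. Other probe sets gave 0.66 and 0.16 for Lamtor1, -0.15 for Lamtor2 and 0.14 and 0.15 for Flcn. Lamtor4 had 5.81, 5.21 and 5.47 on stem cell arrays 1, 2 and 3, against 4.68, 4.85 and 4.70 on total testicular arrays 1, 2 and 3. It passed without stem cell replicate 2 (0.90, limma adjusted p = 0.0376), within an adjusted p range of 0.0376 to 0.327 over 16 alternatives. The median of the 10 genes was 0.35, beside -0.05 over all genes.

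Of 7 measured assembly factors of the pump, 0 passed in limma (1 higher at an unadjusted p under 0.05, against 11.8% of all genes). The largest difference was that of Vma21, a chaperone of V0 assembly (0.65, limma adjusted p = 0.193, and 0.76 on its other probe set). That other probe set lay below background on every total testicular array. Without stem cell replicate 1 the 0.65 became 0.31. With the fluidics module as a block (stem cell replicate 2 against total testicular replicate 3) it became 0.15. Of 3 measured MiT/TFE factors, 0 passed (1 higher at an unadjusted p under 0.05, against 11.8% of all genes). The largest difference was for Mitf (0.48, limma adjusted p = 0.182), whose mean of 2.44 on the total testicular arrays lay close to background. Of 8 measured lysosomal ion channels and transporters, 0 passed (1 higher and 1 lower at an unadjusted p under 0.05, against 11.8% and 13.1% of all genes). These were Clcn5, a chloride-proton exchanger of endosomes (0.68, limma adjusted p = 0.134, and 0.34 and 0.11 on its other probe sets), and Clcn6 (-0.30, limma adjusted p = 0.165), which lay below background on all 3 stem cell arrays. Clcn5 passed without stem cell replicate 2 (0.91, limma adjusted p = 0.0357), within an adjusted p range of 0.0357 to 0.601 over 16 alternatives.

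The mitochondrial F-type ATP synthase, a rotary relative of the V-ATPase that makes ATP, was set beside it. Of its 15 measured subunits, 0 passed in limma (3 higher and 0 lower at an unadjusted p under 0.05, against 11.8% of all genes higher), and the median log2 difference was 0.13. The 3 were Atp5g2 (0.93, limma adjusted p = 0.0868), Atp5g3 (0.88, limma adjusted p = 0.0833) and Atp5c1 (0.34, limma adjusted p = 0.149). Atp5g2 and Atp5g3 encode the same mature ring protein. Both passed without stem cell replicate 3 (1.12 and 1.12, limma adjusted p = 0.0280 and 0.0122), within adjusted p ranges of 0.0280 to 0.314 and 0.0122 to 0.314 over 16 alternatives.

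The 9 members had a mean profile, each gene centred on its own mean over the 6 arrays, of 0.62, 0.20 and 0.12 on stem cell arrays 1, 2 and 3, against -0.33, -0.25 and -0.35 on total testicular arrays 1, 2 and 3. The members' own log2 differences ran from -0.32 to 2.13, with 6 positive and 3 negative, so this mean does not describe each member. Most like the mean profile among 12384 other genes, by root mean square difference over the 6 arrays, were 5 genes. They were Tecr (0.043 log2 units), Tle5 (0.056), Myl12b (0.057), Adk (0.059) and Ube2d1 (0.060). Their log2 differences lay between 0.54 and 0.69, given as a description, since the genes were chosen for their values on these arrays. Ube2d1 lay below background on all 3 total testicular arrays, with a mean of 2.15.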

How the data were processed

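RNA of the 6 samples was labelled with biotin and hybridised to 1 Affymetrix Mouse430A_2 array each, per the labels' protocols and the file headers. The log2 probe set values were used as the authors deposited them. MAS5 and RMA appear in the submitters' processing notes without a role, and the background correction and normalization are not given in the sources used here. The number of arrays limits the precision.

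Groups came from the sample titles. Of 22690 probe sets, 64 controls were left out. Genes were named from the platform annotation, with 20380 probe sets naming 1 gene, 691 several and 1555 none, and those naming several were not used for genes. The difference between stem cell and total testicular arrays was fitted by limma 3.58.1 under R 4.3.3. Variances were moderated by eBayes using a trend on intensity, tests were two-sided, and p was adjusted by Benjamini-Hochberg over 22626 probe sets and a threshold of 0.05. An exact permutation test of 3 against 3 arrays cannot go below p = 0.1. Linear sums for marker lists add 2 to the power of the log2 values. On simulated data of 3 against 3 arrays, the fit recovered 59.7% of true log2 changes of 1, 95.5% of those of 2 and 100% of those of 4.

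The members and lists were chosen with earlier results of these data known. Named genes were the members, the other subunits, of each further list the gene with the largest difference where none passed, and the 5 genes of most similar profile. Clu, Id4, Stra8, Itga6, Lamtor1, Lamtor2, Lamtor3, Flcn, Clcn6, Atp5c1 and Atp5g3, and the promoter of Atp6v0b, were chosen after their values were seen. Promoters were searched without their last 50 bases, which follow the start. Deviations of same-numbered arrays had correlations of -0.01, 0.01 and 0.30, and those of the other pairs ranged from -0.35 to 0.30. With 3 arrays in each group these values cannot decide on pairing. The labels do not pair the samples, so replicate numbers were not taken as pairs in the main fit. Alternatives covered scaling, a filter on dim probe sets, blocks, variance models, thresholds and leaving out each array.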

Additional observations from a re-analysis of the deposited data

How the results depend on the processing

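Of the 9 members' differences under the alternatives, 156 values kept their direction and their side of the threshold, 13 lost the call (all of Atp6ap1 or Atp6ap2), 1 gained it (Atp6v0b without stem cell replicate 2) and 1 changed sign (Atp6v1a after quantile normalization, 0.017). The cause was not tested. The probe sets called over the whole table were 316 higher and 34 lower. Leaving out 1 array gave 36 to 1365 higher and 0 to 943 lower. The member probe sets higher (4 with all arrays) ranged from 0 to 5 and those lower (0) from 0 to 2, and the member genes higher (2) from 0 to 3, with 0 when any 1 total testicular array was left out. Leaving out an array also lowers the number of arrays behind the spread. The replicate block gave 1065 higher and 196 lower, with 4 member probe sets and 2 member genes higher, and Atp5g2 and Atp5g3 passed (adjusted p = 0.0474 and 0.0165). Of the correlations of deviations, only those of replicate 3, in both groups, were highest with their own number. The fluidics round as a block gave 1200 higher and 84 lower, and array weights 853 and 148. Median centring, which moved the median difference of all probe sets from -0.03 to -0.15, gave 363 higher and 91 lower, so that 80.0% of calls were higher, against 90.3% as deposited. Without an intensity trend the calls were 119 higher and 6 lower, with 1 member probe set and 1 member gene (Atp6ap2). With an unmoderated linear model they were 0 and 0, with 0 members, and likewise 0 and 0, with 0 members, with the fluidics module as a block, where 1 module held both groups. At a threshold of 0.01 there were 53 higher and 0 lower, with 0 members, and a log2 difference of at least 1 left 22 lower. Sign changes among the other subunits were as follows. Atp6v0a1 gave 0.066 with the round as a block, 0.039 with array weights and -0.17 to 0.19 when arrays were left out. Atp6v0a2 gave 0.11 with the round as a block and -0.19 to 0.10 when arrays were left out. Leaving out arrays gave -0.24 to 0.012 for Atp6v0e2, -0.29 to 0.022 for Atp6v1c2 and -0.12 to 0.0080 for Atp6v1g1. The module as a block gave 0.078 for Atp6v1d, 0.11 for Atp6v1g1 and -0.043 for Rnasek. Signal limits Tcirg1, Mitf, Atp6v0a4, Atp6v1c2 and Atp6v1g2, which lay near or below background.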
